A study of Homo sapiens with 30 samples.

Results

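The endothelin system was described in 5 human breast cancer cell lines treated with bone morphogenetic protein 4 (BMP4), through the 6 genes EDN1, EDN2, EDN3, EDNRA, EDNRB and ECE1. The members were all array probes carrying one of these gene names, which gave 8 of the 41000 probes and 6 of the 30484 gene names. EDN1, EDN2, EDN3 and ECE1 had 1 probe each, and the receptor genes EDNRA and EDNRB had a probe A and a probe B. The set was selected on the BMP4 over vehicle ratio of EDN2, which often reached 2-fold, so that ratio is given below as a description and without a test.

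The established lines SK-BR-3, ZR-75-30, HCC1419, MDA-MB-361 and HCC1954 were each collected after 30 min, 1, 3, 6, 12 and 24 h. At every time point Cy5-labelled RNA from cells given recombinant human BMP4 was hybridized with Cy3-labelled RNA from cells given vehicle for as long, on 1 two-colour array. That made 30 arrays, 5 per time point and 6 per line. Replicate cultures were pooled into 1 RNA per channel and the dyes were never swapped, so a ratio against 0 includes any dye bias of the probe, and the 5 lines are the only replicates of a time point. Ratios are log2 of BMP4 over vehicle, and levels are log2 signal of 1 channel after normalization. Both include an offset of 50 added to each channel. On either scale 1 unit is 2-fold in that signal, and for low signals it is more than 2-fold in the signal before the offset. Levels were compared between lines within a probe and never between probes.

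Endothelins are small secreted peptides, best known as vasoconstrictors made by endothelium and also made by epithelia and many carcinomas. Their precursors, the products of EDN1, EDN2 and EDN3, are cut by furin-type convertases, and the resulting big endothelins are cut to the active peptide by endothelin converting enzyme, the product of ECE1. The peptides act through the G protein-coupled receptors EDNRA and EDNRB. EDN1 and EDN2 peptides bind both receptors, and the EDN3 peptide prefers EDNRB.

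Only some of the members gave a measurable signal. EDN1, EDN2 and ECE1 were well above background, as flagged by the scanner software, on 30 of 30 arrays in both channels. EDN3 and EDNRA probe B were well above background on 0 of 30 arrays in either channel, and so was EDNRB probe A. EDNRA probe A reached that level on 1 array, MDA-MB-361 at 3 h. EDNRB probe B reached it on 2 arrays in the vehicle channel and 3 in the BMP4 channel, all of them HCC1954 or ZR-75-30. No member was saturated. In these lines the ligands EDN1 and EDN2 and the converting enzyme were therefore measured, whereas the third ligand and both receptors were not well above background on nearly all arrays.

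Detection of cell type markers was checked first. The luminal epithelial KRT8, KRT18, KRT19, EPCAM and ERBB2 were well above background on all 6 vehicle channels of every line. So was CDH1 in every line but SK-BR-3, where it was on none. KRT19 had a mean log2 level of 11.21 in HCC1954 and 17.53 to 17.61 in the other lines. ESR1, GATA3 and TFF1 were on all 6 vehicle channels of every line, except ESR1 in SK-BR-3, which was on none. Their mean log2 levels differed between lines. ESR1 was at 7.26 in HCC1954, against 9.32 to 11.36 in HCC1419, MDA-MB-361 and ZR-75-30. TFF1 was lowest in HCC1954 at 7.98, the next being SK-BR-3 at 11.76, and GATA3 was at 7.97 in SK-BR-3, against 10.02 to 13.15 in the other lines. The leukocyte marker CD3E and the melanocyte marker DCT were on all 30 vehicle channels, so the flag alone does not establish identity. Of 5 endothelial markers, the endothelium being the classical source of EDN1, VWF was on all arrays of all 5 lines. PECAM1 was on all 6 arrays of HCC1954 alone, and CDH5 was on 5 of 6 arrays in HCC1954 and in SK-BR-3. Counting each marker seen on at least 1 array of a line, not always the same array, 4 of the 5 were seen in HCC1954 and 3 in ZR-75-30. The count was 2 in SK-BR-3, 2 in MDA-MB-361 and 1 in HCC1419, and TEK was on no array outside ZR-75-30. The summed log2 level of the 5 ran from 9.80 to 10.57 in HCC1954 and from 9.38 to 9.78 in SK-BR-3, above the 8.95 to 9.35 of the other lines. The sum includes markers not well above background, each with its offset, so no endothelial content is read from it. In SK-BR-3 PECAM1, KDR and TEK were on no array, and VWF (8.08) was near its level in HCC1419 (8.05). CDH5 was at 7.71 there, against 6.47 to 6.53 in HCC1419, MDA-MB-361 and ZR-75-30. HCC1954 and SK-BR-3 also had the highest EDN1 levels, and the part of the endothelial marker transcripts in the EDN1 level was not tested. By vehicle level over all detected probes, 30 of 30 arrays were closest to the other arrays of their own labelled line.

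The array probes lie on hg18, per the file headers, at chr6:12404658-12404717 on the plus strand for EDN1, chr1:41717043-41717102 on the minus strand for EDN2, chr20:57334076-57334135 on the plus strand for EDN3 and chr1:21432653-21432712 on the minus strand for ECE1. The receptor probes lie at chr4:148676533-148676592 and chr4:148684928-148684987 for EDNRA (plus strand), and at chr13:77372007-77372066 and chr13:77368569-77368628 for EDNRB (minus strand). The files pair each probe with a transcript of the named gene, and whether a probe lies in a coding exon or elsewhere in the transcript was not analysed here.

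The regions upstream of the transcription starts of EDN2 and EDN1 are shown because these are the ligand genes that were measured, and because they gave unlike ratios. Each run is the 250 bases 5′ of a RefSeq start on GRCh38.p14, chr1:41484684-41484933 on the minus strand for EDN2 and chr6:12290111-12290360 on the plus strand for EDN1, the last of its 3 listed starts. Capitals mark matches on either strand to any of 4 motifs. The BMP response element was searched as GGCGCC. The core of the hypoxia response element was searched as ACGTG. For AP-1 the letters were TGANTCA, with N for any base. The GATA site was searched as AGATAA, and the capitals of different motifs do not overlap.

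EDN2: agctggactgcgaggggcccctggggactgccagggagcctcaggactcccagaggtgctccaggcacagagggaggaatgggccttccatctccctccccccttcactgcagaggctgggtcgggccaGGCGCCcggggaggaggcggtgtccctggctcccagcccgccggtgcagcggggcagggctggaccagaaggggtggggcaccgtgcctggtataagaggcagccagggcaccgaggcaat

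EDN1: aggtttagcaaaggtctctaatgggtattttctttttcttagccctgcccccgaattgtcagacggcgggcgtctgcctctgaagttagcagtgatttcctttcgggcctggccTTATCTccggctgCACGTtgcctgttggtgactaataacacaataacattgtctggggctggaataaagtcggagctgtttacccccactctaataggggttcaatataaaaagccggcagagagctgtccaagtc

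The capitals in EDN2 are a single GGCGCC, beginning at -121 relative to the start. In EDN1 they are a GATA match on the opposite strand at -136 and an ACGTG match on the opposite strand at -123. Over the full windows of 300 bases, from 250 before to 50 after each start, GGCGCC was found in 19.2% of 35116 RefSeq promoters, ACGTG in 21.4%, AGATAA in 10.3% and TGANTCA in 7.71%. The SMAD box GTCT, searched on both strands and not capitalized, was in 84% of promoters and had 0 matches in the EDN2 window and 5 in the EDN1 window. At the other listed EDN1 starts, the first window had 2 ACGTG matches and the second had 0. Neither had an AGATAA match, and each had 4 of GTCT, so the matches shown for EDN1 belong to 1 start. Among the other members, GGCGCC occurred in 3 of the 4 ECE1 windows and in no EDNRA or EDNRB window, and EDN3 had no entry. These matches describe letters in a window and say nothing of binding.

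EDN2, the ligand on which the set was chosen, had the higher signal in BMP4-treated cells on 27 of 30 arrays. In MDA-MB-361 its log2 ratio was -0.25 at 30 min and then 1.29, 1.57, 1.43, 1.48 and 1.92 at 1, 3, 6, 12 and 24 h. In HCC1419 the ratios at the same times were 0.27, 1.19, 0.75, 1.02, 1.43 and 1.89. Both lines were at their highest at 24 h, equal to 3.79-fold and 3.70-fold.

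In ZR-75-30 the 6 log2 ratios of EDN2, in order of time, were 0.42, 1.33, 1.06, 0.90, 1.55 and 1.30. HCC1954 gave 0.33, 0.24, 0.54, 0.61, 0.96 and 1.29, and SK-BR-3 gave -0.06, -0.02, 0.30, 0.47, 0.52 and 0.22. The lines thus differed in when the ratio was first high, being above 1 at 1 h in HCC1419, MDA-MB-361 and ZR-75-30, only at 24 h in HCC1954, and at no time in SK-BR-3.

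Averaged over the 5 lines (mean ± SD, n = 5), EDN2 had a log2 ratio of 0.14 ± 0.28 at 30 min. The means for 1, 3 and 6 h were 0.81 ± 0.65, 0.85 ± 0.49 and 0.89 ± 0.37, and those for 12 and 24 h were 1.19 ± 0.44 and 1.32 ± 0.69. The 24 h mean is 2.50-fold. The ratios at 30 min, at most 0.42, lay below those of all 5 lines at 6 and 12 h, and overlapped the later ones through SK-BR-3 at 3 and 24 h and through SK-BR-3 and HCC1954 at 1 h. The late change, defined as the mean of 3, 6, 12 and 24 h minus 30 min, was 0.92 over the lines (SD between lines 0.57). It was above 0 in 5 of 5 lines, at 1.85 in MDA-MB-361, 1.01 in HCC1419, 0.78 in ZR-75-30, 0.52 in HCC1954 and 0.44 in SK-BR-3.

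**Figure D1:**
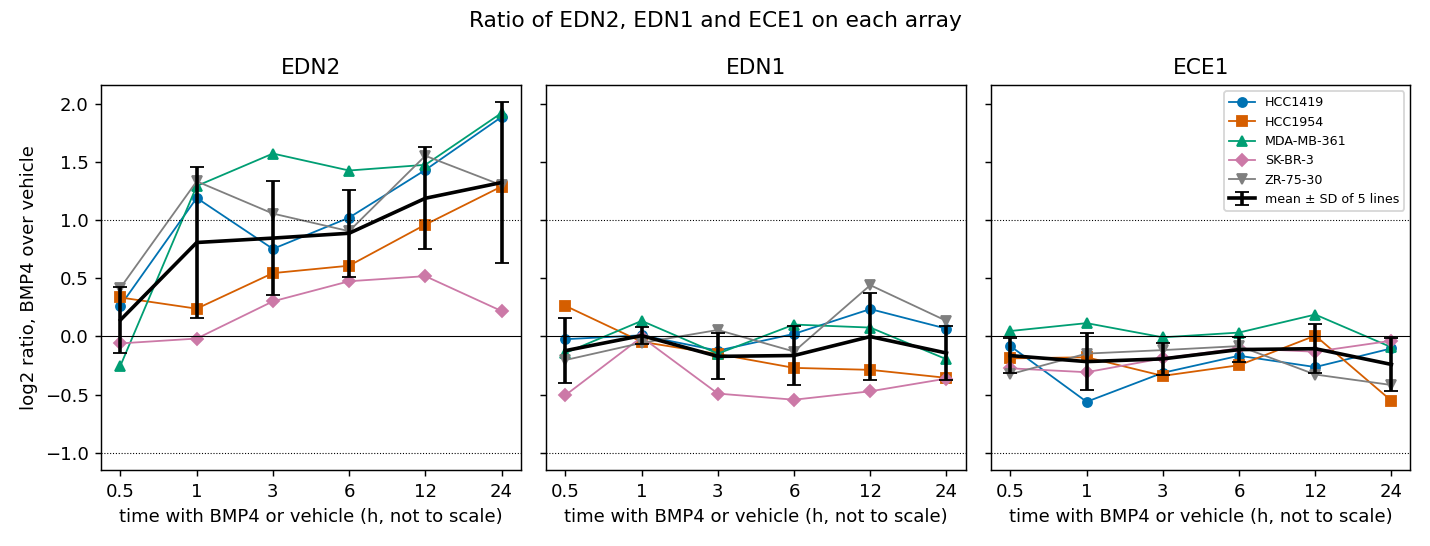
Log2 ratio of BMP4 over vehicle (vertical axis) at the 6 time points (horizontal axis, in hours, not to scale) for EDN2, EDN1 and ECE1. Each coloured line is 1 cell line, 1 array per point, the black line is the mean of the 5 lines with its SD, and dotted lines mark 2-fold. EDN2 lay above 2-fold on 14 arrays, with SK-BR-3 lowest at every time after 30 min, while EDN1 and ECE1 stayed within 2-fold on all 30 arrays.

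A 2-fold event is 1 array on which a probe reached a log2 ratio of 1 or -1. EDN2 had 14 events up and 0 down, 5 in MDA-MB-361, 4 in HCC1419, 4 in ZR-75-30, 1 in HCC1954 and 0 in SK-BR-3. Of all probes, 3.96% had at least 1 event up and 0.0171% had 14 or more. The array just inside the threshold was HCC1419 at 6 h (1.02), and the one just outside was HCC1954 at 12 h (0.96). By time, 0 events fell at 30 min, 3 at 1 h, 2 each at 3 and 6 h, 3 at 12 h and 4 at 24 h. The remaining 7 member probes had 0 events in either direction, where 7.8% of all probes had at least 1. The 5 probes of EDN3, EDNRA and EDNRB were mostly not well above background. For such low signals the offset of 50 brings ratios toward 0, so their 0 events are not read as a result. In the series matrix the 7 probes had 11 events.

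EDN1, the most widely studied endothelin, showed no shift of this kind. Its log2 ratios ran from -0.54 in SK-BR-3 at 6 h to 0.44 in ZR-75-30 at 12 h, with a median of -0.09, and 11 of 30 were above 0. The means of the time points (± SD, n = 5) were -0.12 ± 0.28 and 0.01 ± 0.08 for 30 min and 1 h, -0.17 ± 0.20 and -0.16 ± 0.26 for 3 and 6 h, and -0.00 ± 0.37 and -0.14 ± 0.23 for 12 and 24 h. Every one of these groups held arrays above and below 0. The late change of EDN1 was 0.00 ± 0.09 (SE), with 4 lines above 0 and HCC1954 below it at -0.53 (limma, adjusted p = 0.999). This probe was spotted 10 times on each array, and the SD of its ratio over the spots had a median of 0.07 and a highest value of 0.16, so the spread between lines was mostly larger than that between spots.

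ECE1, the converting enzyme, leaned slightly to lower signal with BMP4. Its ratio was below 0 on 25 of 30 arrays, from -0.56 in HCC1419 at 1 h to 0.19 in MDA-MB-361 at 12 h, with a median of -0.16. The largest mean difference was at 24 h, where the lines gave -0.55 (HCC1954), -0.42 (ZR-75-30), -0.10 (HCC1419), -0.09 (MDA-MB-361) and -0.04 (SK-BR-3), all below 0. That mean of -0.24 ± 0.23 (SD, n = 5) missed the threshold (limma, adjusted p = 0.143, unadjusted p = 0.00632). That mean passed only when constant differences between the lines were removed from the error (limma with a replicate block, adjusted p = 0.0362). Such a p leaves out that part of the spread between the 5 lines, which are the only replicates of a time point. Over all probes the same block raised the 24 h calls from 647 to 1819, so no lower level of ECE1 is read from it. The ECE1 mean at 24 h was -0.29 with an offset of 16, -0.47 in the series matrix and -0.46 in the log ratio of the scanner software. Without the block it missed the threshold in each of these (limma, adjusted p = 0.169, 0.128 and 0.119). ECE1 was already at -0.17 ± 0.15 at 30 min, its late change was 0.00 ± 0.07 (SE; limma, adjusted p = 0.999), and with no swapped dyes a constant dye bias of the probe cannot be told apart from a lower level.

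None of the 7 probes other than EDN2 was called against a ratio of 0 at any time point by limma (0 of 42 tests, 6 at an unadjusted p under 0.05). The shares of all probes called were 0.0805% and 0.973% for 30 min and 1 h, 0.349% and 0.176% for 3 and 6 h, and 0.463% and 1.58% for 12 and 24 h, so 0 calls among 7 probes is near that background. None was called for the late change (0 of 7, and 0 of 7 at an unadjusted p under 0.05, background 0.0927%), nor for change over time in the F test (0 of 7, and again 0 unadjusted, background 0.0902%). The 5 dim probes of EDN3, EDNRA and EDNRB had ratios between -0.34 and 0.39, which are ratios of signals mostly not well above background, and no direction is read from them. At these signals a change of EDN3 or of the receptors that stayed near background was not detectable.

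**Figure D2:**
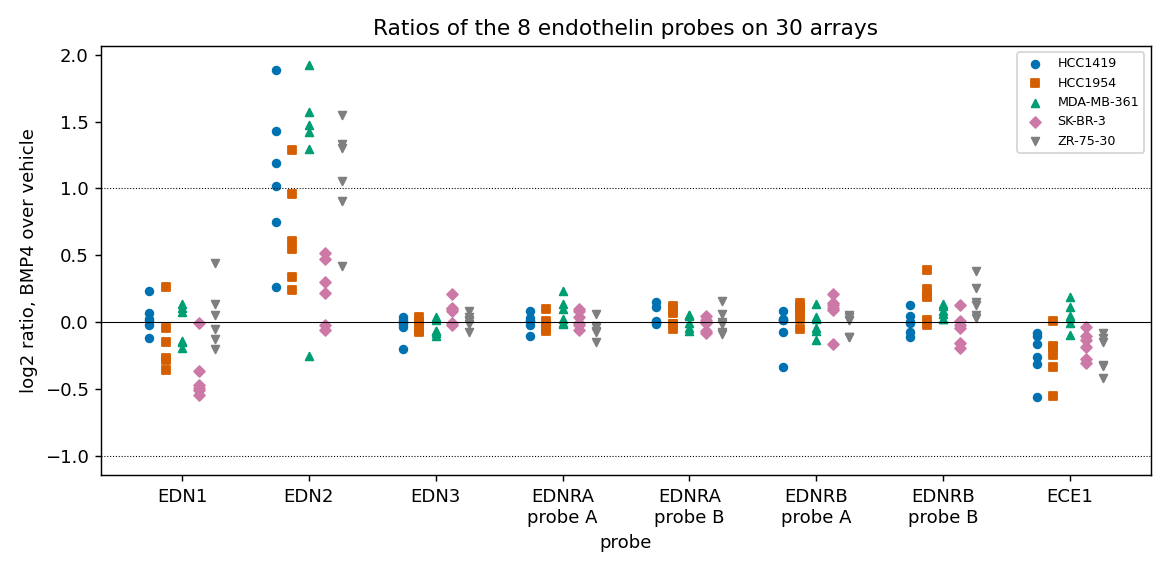
Log2 ratio of BMP4 over vehicle (vertical axis) of the 8 endothelin probes (horizontal axis) on the 30 arrays, 1 point per array, coloured by cell line, with dotted lines at 2-fold. EDN2 alone passed 2-fold, and the 5 probes of EDN3, EDNRA and EDNRB stayed between -0.34 and 0.39. The offset of 50 brings ratios of such low signals toward 0.

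The size of the ratio differed between lines for some members. SK-BR-3 had the lowest EDN1 ratios, -0.51, -0.01, -0.49, -0.54, -0.47 and -0.36 in order of time, a mean of -0.40 ± 0.20 (SD, n = 6). The means of the other lines ran from -0.14 in HCC1954 to 0.04 in ZR-75-30. Apart from its 1 h array, SK-BR-3 lay below every array of the other 4 lines, the closest being HCC1954 at 24 h (-0.36). Limma's F test between lines called EDN1 (adjusted p = 0.019), and of the 10 pairs of lines SK-BR-3 differed from MDA-MB-361 (adjusted p = 0.0261, a pair that called 13.7% of all probes) and from ZR-75-30 (adjusted p = 0.0351, 3.1% of all probes). SK-BR-3 lay further below HCC1419 (0.43 ± 0.11 SE) than below MDA-MB-361 (0.37 ± 0.11 SE). That pair missed the threshold (limma, adjusted p = 0.129) and called 0.0854% of all probes. The adjustment was made over all probes within each pair, so a pair that missed it is not read as alike.

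For ECE1 the line that stood apart was MDA-MB-361, with a mean ratio of 0.05 ± 0.10 (SD, n = 6), where the other 4 had means from -0.25 to -0.17. Its arrays, -0.09 to 0.19, overlapped those of each other line. The F test called ECE1 (limma, adjusted p = 0.0416), and MDA-MB-361 differed from HCC1419 (adjusted p = 0.0187, 16.9% of all probes called), ZR-75-30 (adjusted p = 0.0232, 17.8%) and HCC1954 (adjusted p = 0.0351, 8.01%) but did not pass against SK-BR-3 (adjusted p = 0.0831). EDNRB probe B was also called (adjusted p = 0.0419) on signals that were not well above background on at least 27 arrays in either channel.

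These 3 of 7 calls stand beside a background of 22.2% of all probes. They depend on the normalization, because when a single factor per array replaced loess, EDN1 (adjusted p = 0.824), ECE1 (0.373) and EDNRB probe B (0.798) all failed in limma and the number of probes called over the whole array dropped from 9092 to 5. Without SK-BR-3 the EDN1 call was lost (adjusted p = 0.478), and without MDA-MB-361 both the ECE1 call (0.915) and the EDN1 call (0.111) were lost. EDN1 was lost without HCC1419 as well (0.0543). Leaving out MDA-MB-361 also lowered the number of probes called over the whole array from 9092 to 96, so that line stood apart well beyond ECE1. With the slide as a random block, each slide holding 1 line, the ECE1 call was lost (limma, adjusted p = 0.0511). EDNRB probe B kept its call in 3 of 13 alternatives, and lost it on leaving out any of the 5 lines (limma, adjusted p from 0.0601 to 0.155), without the HCC1954 1 h array (0.0647), in the series matrix (0.414), in the software log ratio (0.234) and with array weights (0.0539).

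The basal level of the ligands differed between lines far more than the ratio did. In vehicle-treated cells the lowest, median and highest log2 level of EDN1 were 12.02, 12.91 and 15.22 in HCC1954, 12.27, 12.79 and 14.04 in SK-BR-3, and 10.95, 11.83 and 12.25 in ZR-75-30. They were 8.16, 9.05 and 9.27 in MDA-MB-361 and 7.21, 7.66 and 7.89 in HCC1419. The last 2 lines lay apart from each other and below every array of the first 3, while HCC1954 overlapped SK-BR-3 and, by its lowest arrays, ZR-75-30.

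By mean level the order of EDN1 was HCC1954 (13.09 ± 1.15, SD, n = 6), SK-BR-3 (13.01 ± 0.64), ZR-75-30 (11.72 ± 0.54), MDA-MB-361 (8.86 ± 0.44) and HCC1419 (7.60 ± 0.24). The lines differed in limma's F test (adjusted p = 4e-15), beside a background of 73.1% of all probes. HCC1954 exceeded HCC1419 by 45.1-fold (adjusted p = 2.53e-14). In this order only the neighbours HCC1954 and SK-BR-3 did not differ beyond their spread (difference 0.08 ± 0.27 SE, adjusted p = 0.844). Without the 1 h array of HCC1954, described below, their order turned, with 12.67 ± 0.55 (n = 5) in HCC1954, and the pair again did not pass (adjusted p = 0.356). HCC1954 was then 35.7-fold above HCC1419, and SK-BR-3 was 42.5-fold above HCC1419. In bulk RNA of a line, fewer cells making a transcript and less of it per cell cannot be told apart. Over all probes, the pairs with HCC1419 called 49.5% against HCC1954, 47.8% against SK-BR-3, 44.3% against ZR-75-30 and 43.3% against MDA-MB-361. MDA-MB-361 differed at 54%, 51.3% and 46.8% of probes from SK-BR-3, HCC1954 and ZR-75-30, and the last 3 pairs called 45.5% (HCC1954 and SK-BR-3), 43.6% (SK-BR-3 and ZR-75-30) and 40.9% (HCC1954 and ZR-75-30).

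EDN2 followed another order. Its lowest, median and highest vehicle levels were 12.17, 12.77 and 13.43 in SK-BR-3, 10.77, 10.96 and 11.28 in HCC1419, and 10.03, 10.27 and 10.64 in ZR-75-30. HCC1954 gave 8.86, 9.26 and 12.45, and MDA-MB-361 8.05, 8.12 and 8.38. SK-BR-3 overlapped only the single highest array of HCC1954, MDA-MB-361 lay below all other lines, and HCC1419 and ZR-75-30 did not overlap each other.

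The lines differed in EDN2 level (limma F test, adjusted p = 4.95e-10, background 73.1%), with means of 12.79 ± 0.58 in SK-BR-3, 10.99 ± 0.19 in HCC1419, 10.30 ± 0.21 in ZR-75-30, 9.76 ± 1.37 in HCC1954 and 8.16 ± 0.13 in MDA-MB-361 (SD, n = 6). SK-BR-3 was 24.8-fold above MDA-MB-361 (adjusted p = 4.92e-11). Neither HCC1419 against ZR-75-30 (adjusted p = 0.112) nor ZR-75-30 against HCC1954 (adjusted p = 0.249) passed. Without the HCC1954 array at 1 h, described below, both of these pairs passed (adjusted p = 0.00218 and 6.86e-05), and the mean of HCC1954 was 9.22 ± 0.42 (n = 5).

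ECE1 varied within a narrower range, from 7.30 ± 0.06 in MDA-MB-361 through 7.43 ± 0.23 in ZR-75-30, 7.70 ± 0.19 in HCC1419 and 7.74 ± 0.06 in SK-BR-3 to 8.12 ± 0.25 in HCC1954 (SD, n = 6; limma F test, adjusted p = 1.24e-06, background 73.1%). The highest line exceeded the lowest by 1.76-fold (adjusted p = 2.31e-07), with the offset included, which narrows differences of low signals. HCC1419 and SK-BR-3 did not differ beyond their spread (adjusted p = 0.792), nor did ZR-75-30 and MDA-MB-361 (adjusted p = 0.297). No probe of EDN3, EDNRA or EDNRB was called between lines, which made 3 calls among 8 member probes. Among probes well above background on at least 15 arrays, 91.6% were called, so a difference between lines is usual for a detected probe. Each slide held 1 line, and scan day and line overlapped on only 1 of 7 days. On that day HCC1954 minus ZR-75-30, 3 arrays each, was 0.90 for EDN1, -1.40 for EDN2 and 0.96 for ECE1 in vehicle level.

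**Figure D3:**
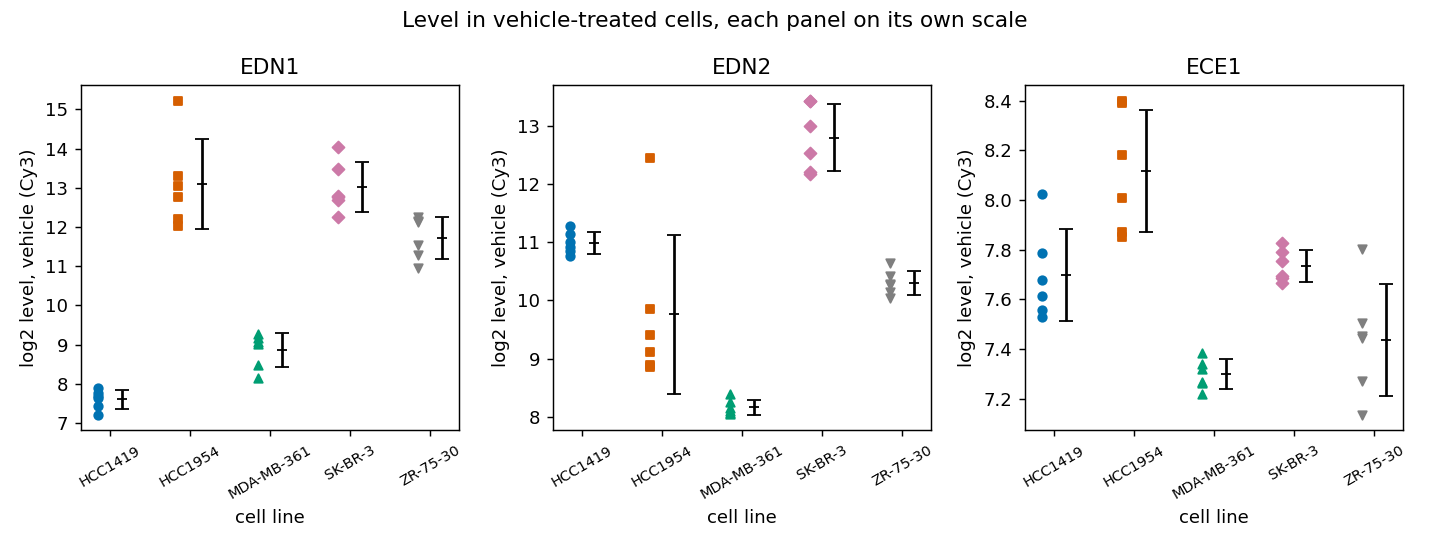
Log2 level in vehicle-treated cells (vertical axis, Cy3 channel, each panel on its own scale) of EDN1, EDN2 and ECE1 in the 5 lines (horizontal axis). Coloured points are the 6 arrays of a line and black bars the mean and SD. EDN1 was highest in HCC1954 and SK-BR-3 and lowest in HCC1419, EDN2 was highest in SK-BR-3 and lowest in MDA-MB-361, and 1 HCC1954 array stood above the rest of its line in both.

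Set side by side over the lines, SK-BR-3 had the highest EDN2 level in vehicle-treated cells and the smallest late change in ratio (0.44), and MDA-MB-361 had the lowest level and the largest late change (1.85). The 3 lines between did not keep this order, since HCC1954, with the second lowest mean level, had a smaller late change than HCC1419 and ZR-75-30. The vehicle signal is the denominator of the ratio on the same arrays, so this level and the late change are not independent. With 5 lines no correlation was computed. In BMP4-treated cells at 24 h the EDN2 level was 12.80 in HCC1419, 12.75 in SK-BR-3, 11.33 in ZR-75-30, 10.40 in HCC1954 and 10.06 in MDA-MB-361, so HCC1419 and SK-BR-3 lay close together and MDA-MB-361 was again lowest.

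One array stood apart for both ligands. In HCC1954 at 1 h the EDN1 level was 15.22 with vehicle and 15.18 with BMP4, against means of 12.67 ± 0.55 and 12.51 ± 0.67 (SD, n = 5) on the other 5 arrays of the line, which is 5.88-fold and 6.36-fold higher. The EDN2 level there was 12.45 with vehicle and 12.69 with BMP4, against 9.22 ± 0.42 and 9.97 ± 0.49, 9.39-fold and 6.60-fold higher. Both channels were high together, so the ratios on this array were -0.05 for EDN1 and 0.24 for EDN2, and ECE1 at 7.85 with vehicle was the lowest of its line.

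On that array 22 of 27640 detected probes (0.0796%) had a vehicle level at least 4-fold above all other arrays of the line, the highest count of the 30 arrays, the next being 13. EDN1, with an excess of 1.92 log2 units, ranked 31 and fell short of 4-fold. EDN2 ranked 9 among the 22 by the size of the excess. The genes ranked above it, in order and named after their values were seen, were EGR2, NR4A1, CYP4Z1, CYP4B1, CXCL2, FOSB, HPGD and RASD1. SK-BR-3 also had its highest EDN1 level at 1 h in both channels (14.04 with vehicle and 14.03 with BMP4) and its highest vehicle level of EDN2 (13.43). The part of these genes in the endothelin levels was not tested. Without this array the mean EDN2 ratio at 1 h was 0.95 ± 0.65 (SD, n = 4), and the late change does not use it.

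**Figure D4:**
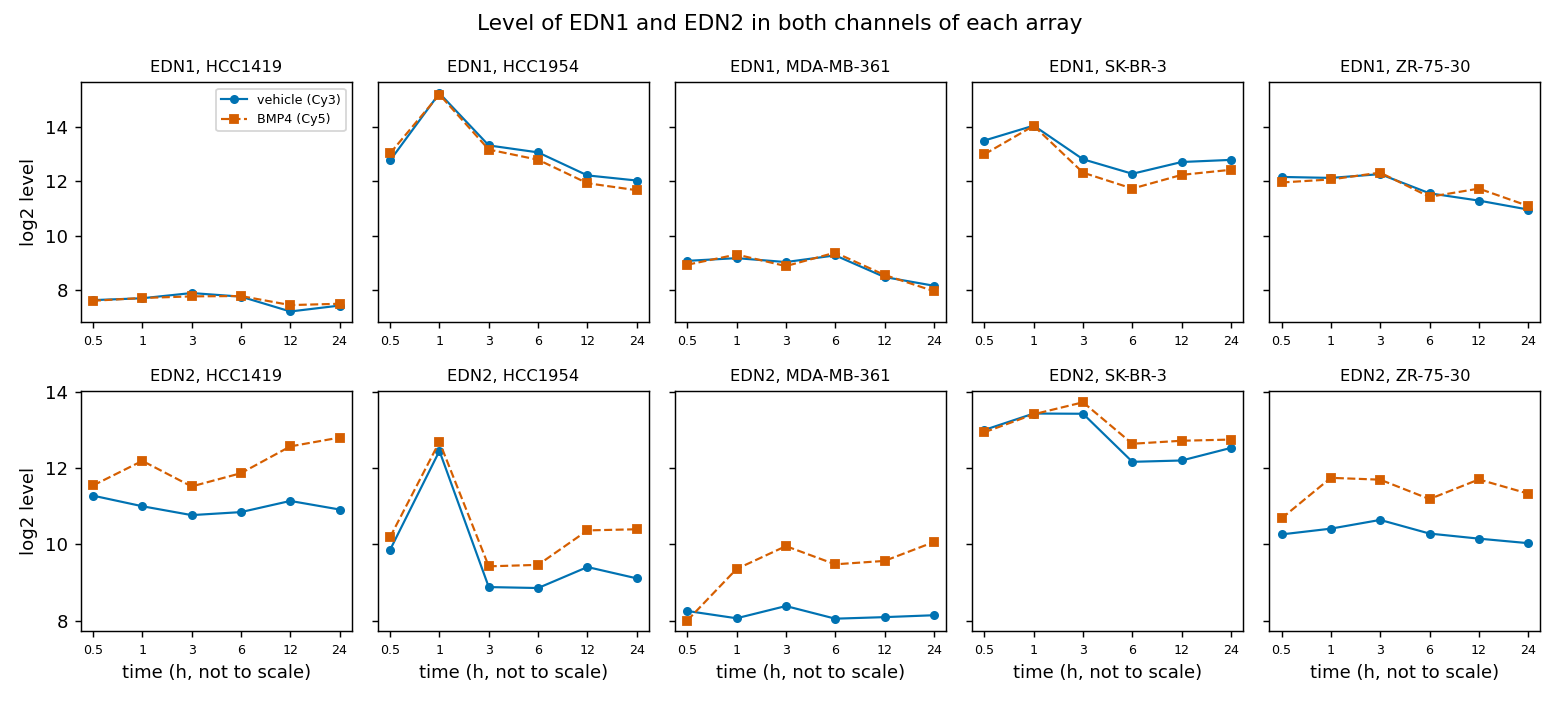
Log2 level (vertical axis) of EDN1 (top) and EDN2 (bottom) in each line at the 6 time points (horizontal axis, hours, not to scale), vehicle in blue and BMP4 in orange, 1 array per pair of points. For EDN2 the channels separated after 30 min in HCC1419, MDA-MB-361 and ZR-75-30, and in HCC1954 at 1 h both ligands were high in both channels.

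The vehicle level of EDN1 drifted over the course of the experiment without passing the test. From 30 min to 24 h it went from 12.76 to 12.02 in HCC1954, from 13.49 to 12.78 in SK-BR-3, from 12.15 to 10.95 in ZR-75-30, from 9.07 to 8.16 in MDA-MB-361 and from 7.63 to 7.43 in HCC1419. All 5 lines were lower at 24 h than at 30 min, and the F test over time gave an adjusted p of 0.176 in limma (unadjusted p = 0.00154, background 0.144%). None of the 7 probes other than EDN2 was called in that test (0 of 7, 1 of 7 at an unadjusted p under 0.05), and ECE1 had an adjusted p of 0.826.

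The time course of EDN2 was compared with other genes. Over the 30 arrays, 26355 probes with values throughout were ranked by the Pearson correlation of their ratio with that of EDN2. The points share lines and arrays, so these values are descriptions without a test. The 10 most alike belonged to MTERFD2 (r = 0.76), the transcript AW327568 (0.76), GSTM3 (0.75 and, for a second probe, 0.73), MMRN2 (0.74), LIN7B (0.74), GATA2 (0.73 and 0.72), LOC730259 (0.73) and DSCR1L2 (0.73). No probe reached 0.8, and the median was 0.02. ID3, a direct BMP target that inhibits basic helix-loop-helix factors, ranked 25 with r = 0.68, and its relatives ID1, ID2 and ID4 had 0.62, 0.54 and 0.41. Once the mean of each line was removed, ID1, ID2, ID3 and ID4 had 0.66, 0.61, 0.70 and 0.70.

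EDN1 had an r of 0.44 with EDN2 over all arrays and 0.07 with the line means removed, and ECE1 had 0.06 and -0.12. In mean ratio EDN2 stood below ID1 at 1 h (0.81 ± 0.65 against 1.33 ± 0.51, SD, n = 5) and near it at 24 h (1.32 ± 0.69 against 1.42 ± 0.38). ID1 had 21 events up, ID2 23, ID3 13 and ID4 14, and EDN2 14. ID1, ID2, ID3 and ID4 all rose late (limma, adjusted p from 0.000109 to 0.00164).

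**Figure D5:**
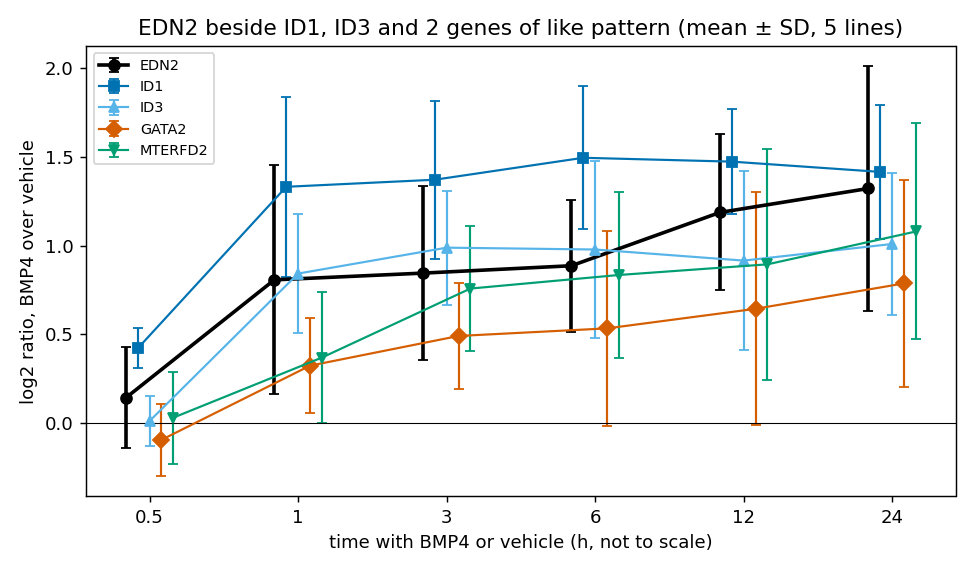
Mean log2 ratio of BMP4 over vehicle (vertical axis, bars are the SD of 5 lines) at the 6 time points (horizontal axis, hours, not to scale) for EDN2, the BMP targets ID1 and ID3, and the like-patterned GATA2 and MTERFD2. ID1 was near its highest mean from 1 h on, while EDN2 had 0.81 at 1 h and 1.32 at 24 h, and GATA2 had 0.32 and 0.79.

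Other genes of endothelin biology were taken from a list of 36, all on the array and 29 well above background on at least 15 vehicle channels. It held enzymes that process or clear endothelins, G proteins and their effectors, kinases and arrestins that desensitize receptors, and transcription factors known to act on EDN1. For the late change 1 of 36 rose and 0 fell (background 0.0927% up), and the median of the list was 0.01, as over all probes. The gene that rose was GATA2, a zinc finger factor known to act on the EDN1 promoter, at 0.71 ± 0.13 (SE; limma, adjusted p = 0.0159).

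At 24 h GATA2 had a mean ratio of 0.79 ± 0.58 (SD, n = 5; limma, adjusted p = 0.0357). A second GATA2 probe gave a late change of 0.51 ± 0.11 (SE) that missed the threshold (limma, adjusted p = 0.0861). The first probe's call was lost with 1 factor per array (adjusted p = 0.867) and without the block of cell line (adjusted p = 1), and in turn without MDA-MB-361 (0.308), SK-BR-3 (0.0662) or ZR-75-30 (0.235).

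None of the 9 processing and clearance genes was called for the late change, and 3 of the 9 were well above background on at least 15 vehicle channels. FURIN, a convertase of endothelin precursors, had a late change of 0.07 (limma, adjusted p = 0.977), and ECE2 and MME, the latter a peptidase that degrades endothelins, were well above background on 0 vehicle channels. Of the 14 G proteins and effectors and the 4 desensitization genes none was called either, with GNAQ, which couples endothelin receptors to phospholipase C, at -0.02 (adjusted p = 0.999) and ARRB1 at 0.07 (adjusted p = 0.971). Among the transcription factors HIF1A had 0.01 (adjusted p = 0.999), FOXO1 0.44 (adjusted p = 0.781) and SMAD4 -0.24 (adjusted p = 0.965). The ratios of 13 of the 36 genes differed between lines, beside the background of 22.2% of all probes and open to the same dependence on loess. With dim probes left out, 9629 probes were called in place of 9092 although fewer were tested. The share among detected probes is thus higher than 22.2%, and no excess is read from the list.

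Each line was spread over more than 1 slide. Only in HCC1419 and ZR-75-30 did 30 min arrays and later ones lie on the same slide, and there the late change of EDN2 within the slide was 0.62 and 0.89, beside 1.01 and 0.78 over all late arrays. The comparisons over time in the other 3 lines also compare slides, where slide and time cannot be told apart.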

How the data were processed

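The authors hybridized pooled RNA to two-colour Agilent arrays and extracted the spots with Agilent Feature Extraction, version 9.5.1.1 with build hg18 per the file headers. The intensity columns deposited for each spot are a mean signal and a local background median, neither of them normalized, and a processed signal that the software had background-subtracted and dye-normalized. The authors also deposited the software's ratio of Cy5 over Cy3 on the log10 scale. Columns of 0 and 1 per the file headers flag spots well above background, saturated or outlying. The authors' series matrix holds log2 ratios. Its lowest correlation over the arrays was 0.9998 with the log2 ratio of the processed signals, and the slope on it ran from 0.9998 to 1.0001, so direction and log base were those of that ratio, and each column had a median of 0.

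Spots were corrected by normexp (offset 50) and normalized by loess within arrays in limma 3.58.1 (R 4.3.3), with 1639 control spots given no weight and outlier spots set to missing, and averaged per probe. Channel levels are log2 values after Aquantile normalization. Of all probes, 58.9% to 70.6% were well above background in Cy3 and 56.3% to 70.8% in Cy5, and the number of arrays limits the precision.

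Tests used limma's lmFit and eBayes over all 41000 probes with Benjamini-Hochberg adjustment, called at an adjusted p under 0.05. Ratios were tested against 0 by time point without a block, for the late change and for any change over time with a fixed term for the line, and between lines with a term for time. Levels in vehicle were tested between lines and over time. The scripts were tested on simulated data. Replicate numbers pair arrays because each is the same line at every time: 1 is HCC1419, 2 is HCC1954, 3 is MDA-MB-361, 4 is SK-BR-3 and 5 is ZR-75-30. Ratio deviations had a mean r of 0.23 between arrays of a line (44 of 75 pairs above 0.1) and -0.06 between different lines and times.

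The members and gene lists were chosen with earlier results of these data known. Named were all member probes, the list genes called and examples not called, the 10 probes most like EDN2, and ID1 to ID4. A list gene with several probes was represented by the brightest. Promoters are RefSeq windows on GRCh38.p14, on which 5 of the 6 members had an entry. Each array holds 1 pool per channel, so p-values measure only the spread between these arrays. Alternatives were another offset, the software's log ratio, the series matrix, 1 factor per array, leaving out dim probes, array weights, scan day or slide as a random block, other scalings of the levels, the replicate block and leaving out each line.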

Additional observations from a re-analysis of the deposited data

Results flagged for a closer look

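Of 47 groups of 5 or 6 arrays tested by Dixon's criterion, over the ratios and levels of EDN1 and ECE1 and the vehicle levels of EDN2, 2 held an array far from its group, where chance gives about 1 in 20. The EDN2 level of HCC1954 at 1 h was 12.45 with vehicle, the nearest other array being 9.86. In SK-BR-3 the EDN1 log2 ratio at 1 h was -0.0064, the highest of the line, the nearest other being -0.36.

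The ratios of 3 probes differed between cell lines in limma's F test, EDN1 (adjusted p = 0.019), ECE1 (adjusted p = 0.0416) and EDNRB probe B (adjusted p = 0.0419).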

How the results depend on the processing

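The 14 EDN2 events of 2-fold or more became 9 to 14 on leaving out 1 line at a time, 9 without MDA-MB-361, and 15 in the series matrix. The remaining 7 probes, with 0 events, had 11 in the series matrix and 10 in the software's log ratio, all of them in the dim probes of EDNRA and EDNRB. Against a ratio of 0, the replicate block gave 1 call among those probes (ECE1 at 24 h), changed no other call among them, and moved the counts over all probes from 33, 399, 143, 72, 190 and 647 to 91, 1036, 444, 212, 779 and 1819 in order of time. With 1 factor per array those counts were 0, 27, 8, 5, 6 and 111, and with array weights 2111, 158, 1075, 278, 168 and 1499. Over all alternatives the array-wide counts ran from 3 (no replicate block) to 115 (array weights) for the late change, in place of 38, from 0 to 151 for change over time, in place of 37, from 5 to 14991 for ratios between lines, in place of 9092, and from 0 to 78 for the vehicle level over time, in place of 59. Between lines the 3 member calls became 0 with 1 factor per array and 0 to 2 on leaving out 1 line. For the vehicle level between lines the 3 calls became 7 with the processed signal minus the 75th percentile, the added 4 being dim probes. The cause of these shifts was not tested.

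The late changes of EDN1 and ECE1, both 0.00, turned sign without a call. EDN1 was -0.042 with 1 factor per array, -0.0063 with array weights and -0.079 to 0.14 on leaving out single lines. ECE1 was -0.017 with array weights and -0.038 to 0.034 on leaving out single lines. Over all alternatives the EDN2 late change lay between 0.69 and 1.13. In vehicle levels EDN1, EDN2 and ECE1 stayed called between lines under all 11 alternatives, with adjusted p of at most 1.45e-08, 2.21e-05 and 0.000627 in limma. Leaving out the HCC1954 1 h array, the slide as a block and the leaving out of lines in the event counts were chosen after seeing the data. Signal over background limits EDN3, EDNRA and EDNRB.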
